A study of Mus musculus with 12 samples.

Results

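A lesion of the dorsal columns (DCL) cuts the central branch of sensory axons in the spinal cord. The regions described here are the stretches of the mouse genome at which 5-hydroxymethylcytosine (5-hmC) in dorsal root ganglia differed between DCL and uninjured control ganglia, as listed by the authors. Their table for this pair of groups holds 35242 of the 70430 regions listed over 3 pairwise tables. Of these, 211 were set aside because they lie in mitochondrial or high-copy sequence, and 35031 are described. DCL libraries came from L4 to L6 ganglia taken 24 h after the lesion. Control libraries came from the uninjured side of other mice, which had received a peripheral lesion 24 h earlier, so the comparison is between animals and the control animals were not free of injury. Each group had 3 libraries, and each library held ganglia of 3 pooled animals. The labels give no strain, sex or age.

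Cytosine methylation is oxidised to 5-hmC by the TET dioxygenases. In neurons, which carry much of this mark, it is found above all along gene bodies and at enhancers. Dorsal root ganglia hold the cell bodies of sensory neurons, each with a peripheral branch to skin, muscle and viscera and a central branch to the spinal cord. The peripheral branch regrows after injury, whereas the central branch regrows poorly, and the comparison asks how the ganglion's 5-hmC differs when the central branch is cut. The ganglion also holds satellite glia, Schwann cells, vessels and immune cells, and in these bulk libraries fewer cells of a type and less 5-hmC per cell cannot be told apart. The tables hold no expression values, so the tissue could not be checked by marker expression.

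The sequences next to the start site of 4 genes are given as examples, and they do not show what promoters with regions are like in general. They are the first 2 genes per direction, by fold without the first-listed DCL library, among consistent regions that the authors' annotation places closest to a start site and for which RefSeq gives a promoter. Each run is the 250 bases upstream of the start in RefSeq GRCm38.p6, 5′ to 3′, with CpG in capitals. The regions themselves are on mm9, the build of all other coordinates given, so they are not placed on these letters. Tex36, a testis-expressed gene, lies on the minus strand (chr7:133602116-133602365). Tnnc2, the troponin C of fast skeletal muscle, lies on the minus strand (chr2:164779735-164779984). Gigyf1, a regulator of translation that binds GRB10, lies on the plus strand (chr5:137518630-137518879). Ndufb8, a subunit of respiratory complex I, lies on the minus strand (chr19:44555443-44555692).
Tex36: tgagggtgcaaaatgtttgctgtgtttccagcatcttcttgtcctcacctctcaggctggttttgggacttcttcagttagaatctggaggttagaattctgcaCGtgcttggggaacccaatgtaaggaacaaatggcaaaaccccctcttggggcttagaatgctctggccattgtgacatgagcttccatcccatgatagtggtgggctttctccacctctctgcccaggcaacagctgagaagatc
Tnnc2: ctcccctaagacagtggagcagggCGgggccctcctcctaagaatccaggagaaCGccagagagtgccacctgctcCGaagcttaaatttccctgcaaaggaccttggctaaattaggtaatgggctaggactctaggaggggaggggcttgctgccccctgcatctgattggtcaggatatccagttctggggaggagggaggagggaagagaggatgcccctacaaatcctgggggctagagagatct
Gigyf1: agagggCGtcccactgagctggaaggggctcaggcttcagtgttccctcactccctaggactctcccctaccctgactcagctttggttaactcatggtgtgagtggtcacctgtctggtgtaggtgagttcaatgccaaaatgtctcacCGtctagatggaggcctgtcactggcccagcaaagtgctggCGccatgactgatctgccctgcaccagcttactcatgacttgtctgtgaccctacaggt
Ndufb8: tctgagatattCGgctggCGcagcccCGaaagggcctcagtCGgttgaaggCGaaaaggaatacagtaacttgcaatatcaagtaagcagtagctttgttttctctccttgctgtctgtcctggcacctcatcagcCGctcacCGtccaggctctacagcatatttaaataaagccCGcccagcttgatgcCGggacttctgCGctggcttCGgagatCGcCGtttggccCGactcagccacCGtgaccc
The Tex36 run holds 1 CpG, the Tnnc2 and Gigyf1 runs hold 3 each, and the Ndufb8 run holds 15.

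Distances in bp are those of the table and are negative upstream of the listed start. The Tex36 region, at -222 bp, had 12.6, 17.9 and 11.2 normalised reads in DCL libraries, against 1.95, 4.96 and 5.34 in control libraries. The Tnnc2 region, at -196 bp, had 15.7, 11.95 and 11.8 normalised reads in DCL libraries, against 3.90, 4.34 and 2.67 in control libraries. In both genes every DCL library lay above every control library. The Gigyf1 region, at -8 bp, had 3.14, 1.49 and 3.95 normalised reads in DCL libraries, against 16.6, 15.5 and 12.3 in control libraries. The Ndufb8 region, at -195 bp, had 0, 4.48 and 1.32 normalised reads in DCL libraries, against 19.5, 11.2 and 14.96 in control libraries. Both regions were lower in all DCL libraries than in any control library, and several of these DCL values stand for 0 or 1 sequenced read.

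Values are normalised read counts, and libraries are given in the order in which the table lists them, which carries no replicate number. A single read counted as 3.14, 1.49 and 0.658 in DCL libraries, against 0.975, 0.620 and 0.534 in the control libraries, so the first-listed DCL library is the shallowest by this measure. The total depth of each library is unknown. Because that library also stood apart from the other DCL libraries, higher regions were split by it. A region is called consistent if all DCL values lie on one side of all control values and the group means still differ at least 1.5-fold without that library. Regions were selected by the authors on these same values, so groups that lie apart are a description of the list, and an exact permutation test of 3 against 3 libraries cannot go below 0.10. Single regions of named genes were drawn from consistent ones, apart from some in the TET genes and Sox11. Wherever such regions are said to lie apart or not to overlap, this follows from that choice and is no added support.

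Most of the listed regions were higher after DCL, 28997 of 35031 (82.8%), and 6034 (17.2%) were lower. Consistent higher regions numbered 11067 (31.6%), and consistent lower ones 6007 (17.1%). All libraries lay apart in 13466 of the higher regions (46.4%) and in 6017 of the lower ones (99.7%). Without the third-listed DCL library the higher count with libraries apart was 23846, though leaving out a library can only raise or keep such a count.

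In consistent higher regions the median was 37.6, 23.9 and 18.4 normalised reads in the DCL libraries, against 10.7, 10.5 and 10.2 in the control libraries. The first-listed DCL library was the highest of its group in 7813 of these 11067 regions as well. In the other 17930 higher regions (51.2%) the medians were 75.3, 28.4 and 18.4 in the DCL libraries, against 19.5, 18.6 and 18.2 in the control libraries. In this class the median of the third-listed DCL library lay among those of the controls. The first-listed one was the highest DCL library in 17155 of 17930 regions. Both follow largely from the split, which leaves here regions that overlap the controls or lose the 1.5-fold difference without that library. Over all 28997 higher regions, before the split, the first-listed DCL library was the highest in 24968. The part of its shallow depth in this was not tested. In lower regions the medians were 3.14, 5.97 and 6.58 in the DCL libraries, against 19.5, 18.6 and 18.7 in the control libraries. These lower medians correspond to 1, 4 and 10 reads in the DCL libraries, against 20, 30 and 35 reads in the control libraries.

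**Figure D1:**
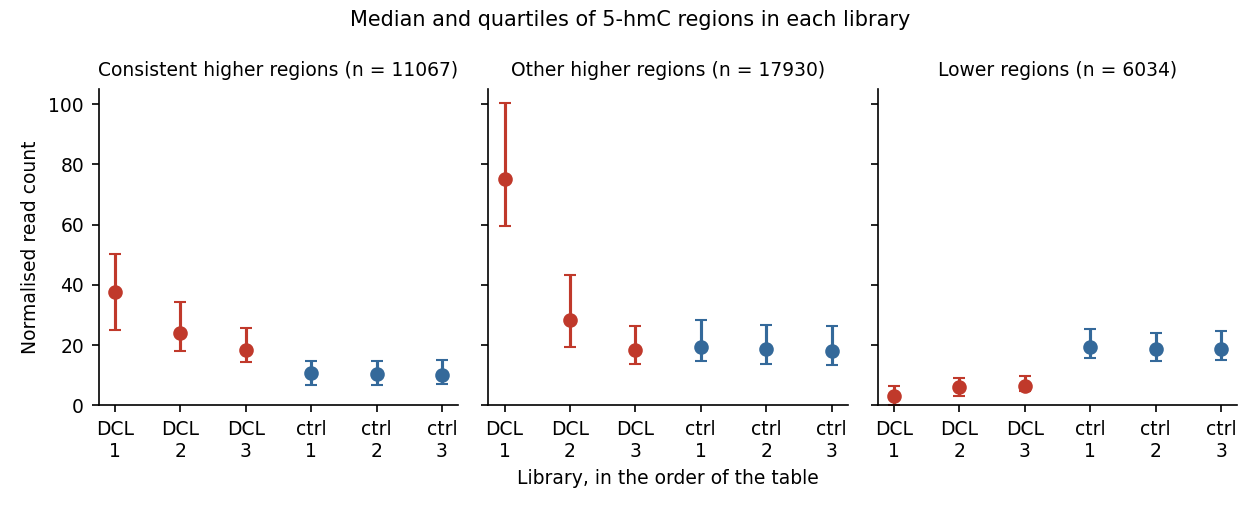
Median (point) and quartiles (bars) of the normalised read count of the listed regions in each DCL library (left, red) and control library (right, blue), for 11067 consistent higher, 17930 other higher and 6034 lower regions. In the middle panel the first-listed DCL library stands at 75.3 and the third at 18.4, next to control medians of 18.2 to 19.5. The classes were defined on these same values, so this contrast follows largely from the split.

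The lowest values in the higher group differed between the directions. In all 6034 lower regions each control library had at least 11.16 normalised reads, whereas 1418 of 29208 higher regions (4.85%, set-aside regions included) had a DCL library under 11. The authors' deposited table lists an adjusted p of 0.05 or more for 713 higher and 25 lower regions, and one under 0.01 for 26660 higher and 5894 lower regions.

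Lower regions were ranked by their ratio without the first-listed DCL library, among those with a control mean of at least 10. In the first 8 genes the second- and third-listed DCL libraries were at or near 0. A region in the body of 4930511A08Rik, an unnamed transcript, had 0 in all DCL libraries, against 12.7, 11.8 and 13.9 normalised reads in control libraries. A region in Rfx7, a transcription factor of the RFX family, had 0, 0 and 1.97 normalised reads in DCL libraries, against 19.5, 11.2 and 13.4 in control libraries. A region in Foxp2, a forkhead transcription factor known from speech and motor circuits, had 6.27, 0 and 1.97 in DCL libraries, against 13.7, 13.0 and 11.8 in control libraries. The groups did not overlap in any of these regions. In Foxp2 the first-listed DCL library, at 2 reads, was the highest of its group. Dlg2, a postsynaptic scaffold, had 0, 0 and 1.97 normalised reads in DCL libraries, against 17.5, 15.5 and 13.9 in control libraries (chr7:99478981-99479260). The authors' deposited table gives an adjusted p of 5.37e-05 for Dlg2, 0.00031 for Rfx7 and 0.000267 for Foxp2. Rprd1a, Magt1, Slc39a11 and Pdcd2 had control means 13.4 to 18.8 times the mean of the second- and third-listed DCL libraries, but 4.79 to 5.63 times the mean of all DCL libraries. In each of them, as in Foxp2, the first-listed DCL library held 6.27 normalised reads, and the Foxp2 ratio was 13.0 without it and 4.66 with it.

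The consistent higher regions were likewise ranked without the first-listed DCL library, among those with a DCL mean of at least 10, and Gss, which encodes glutathione synthetase, came first. Over all DCL libraries the ratio was 11.4 in Gss, 13.6 in Mipol1, 12.4 in Farp2 and 11.9 in Dnah8. The Gss region had 22.0, 35.8 and 11.2 normalised reads in DCL libraries, against 1.95, 2.48 and 1.60 in control libraries (chr2:155417001-155417200, 1446 bp from the start). Spata16, a gene of spermatid development, had 12.6, 16.4 and 13.8 in DCL libraries, against 1.95, 3.1 and 2.14 in control libraries. Egfr, the receptor of epidermal growth factor, had 12.6, 17.9 and 11.8 in DCL libraries, against 0.97, 3.1 and 4.81 in control libraries. All libraries of the groups lay apart in these regions, as the choice of consistent regions requires. The DCL libraries of Spata16 were close to each other. Akap6, an anchoring protein of protein kinase A, had 12.6, 23.9 and 13.2 in DCL libraries, against 1.95, 4.96 and 4.27 in control libraries. Farp2, a guanine nucleotide exchange factor in semaphorin 3A signalling, had 59.6, 11.95 and 13.2 in DCL libraries, against 2.92, 1.24 and 2.67 in control libraries. In Farp2 the first-listed DCL library carried most of the mean, and the ratio without it was 5.51. Ninj2, an adhesion protein induced in Schwann cells after nerve injury, had a ratio of 5.73 without that library, Mipol1 one of 7.23 and Dnah8, an axonemal dynein, one of 5.59. Adjusted p in the authors' deposited table ran over these 8 regions from 0.000185 in Ninj2 to 0.000927 in Mipol1.

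**Figure D2:**
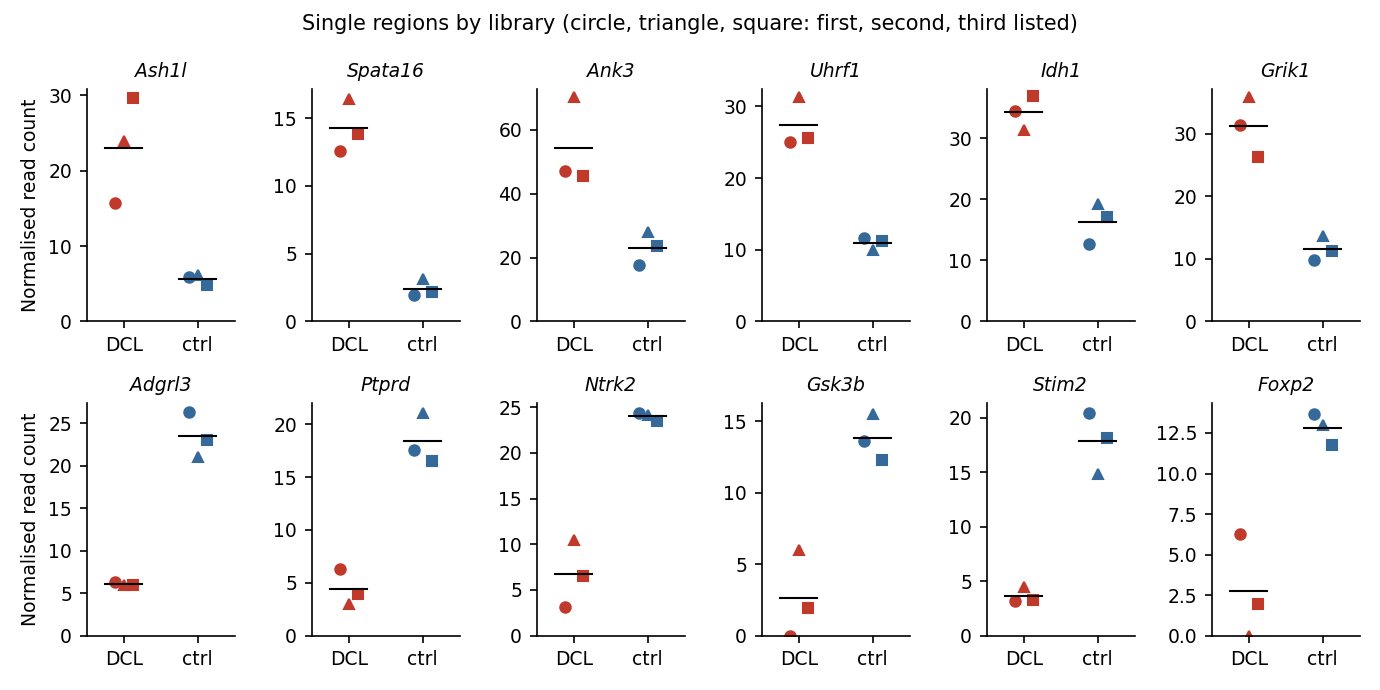
Normalised read count of 12 regions named in the text, with the DCL libraries (left, red) and control libraries (right, blue) as points and the group mean as a line. The top row shows 6 consistent higher regions and the bottom row 6 consistent lower ones, so by that choice the groups do not overlap in any panel.

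At promoters the regions with the largest ratios had few reads in the group with the lower values. Ythdf3, a reader of N6-methyladenosine in RNA, had 0, 0 and 1.97 normalised reads in DCL libraries, against 12.7, 13.6 and 11.8 in control libraries, at -863 bp. Sox15, a SOX family transcription factor, had 9.41, 2.99 and 1.97 in DCL libraries, against 19.5, 19.8 and 14.4 in control libraries. Coil, the scaffold of Cajal bodies, had 0, 1.49 and 2.63 in DCL libraries, against 15.6, 11.2 and 12.8 in control libraries. These promoter regions lay wholly below the controls. Tomm7, Fyb, Slc7a8, Il1bos and Slc4a4 had control means 6.27 to 9.33 times the mean of the second- and third-listed DCL libraries, and 3.92 to 6.45 times the mean of all DCL libraries. For Sox15 the control mean was 7.22 times the DCL mean without the first-listed library and 3.74 times with it. Higher promoter regions included Stk10, a kinase of lymphocytes, at 25.1, 35.8 and 11.2 normalised reads in DCL libraries, against 3.90, 5.58 and 5.88 in control libraries. Ptk7, a receptor of planar cell polarity signalling, had 12.6, 17.9 and 13.2 in DCL libraries, against 3.90, 1.24 and 6.41 in control libraries. Laptm5, a lysosomal protein of immune cells, had 12.6, 17.9 and 12.5 in DCL libraries, against 1.95, 3.72 and 4.27 in control libraries. In each of these the DCL libraries lay above the controls without overlap. With the first-listed DCL library left out, Crxos, Cenpm and Pold3 had ratios of 4.07 to 4.75.

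The direction of a region went with the length of the gene that held it. Of gene body regions in genes under 20 kb, 11.6% were lower (236 of 2027). The share was 13.5% at 20 to 50 kb and 16.1% at 50 to 100 kb. At 100 to 200 kb, 864 of 4321 regions were lower. The share was 24.4% at 200 to 500 kb and 28.8% in genes over 500 kb (312 of 1084). Among lower and consistent higher regions alone it was 24.6% in genes under 20 kb and 45.5% in genes over 500 kb. The median control level was 16.2 normalised reads in the shortest genes and 15.3 in the longest. Gene deserts also had a high share of lower regions, 27.5% (256 of 930), against 18.1% in gene bodies and 13.2% in the annotation class within 1 kb of a start. The relative position of a region within its gene made less difference, with 17.3% to 19.5% lower across 4 bins of equal length. By distance from the start, 11.8% were lower at 3 to 5 kb, 17.1% at 20 to 50 kb and 27.8% beyond 200 kb. Regions that far from a start lie only in long genes, and distance and gene length were not separated. These are shares of a selected list with no test over regions, and all 6 libraries are shared by every bin. Among chromosomes the share of lower regions was 11.7% on X (28 of 240) and reached 22.2% on chromosome 13.

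**Figure D3:**
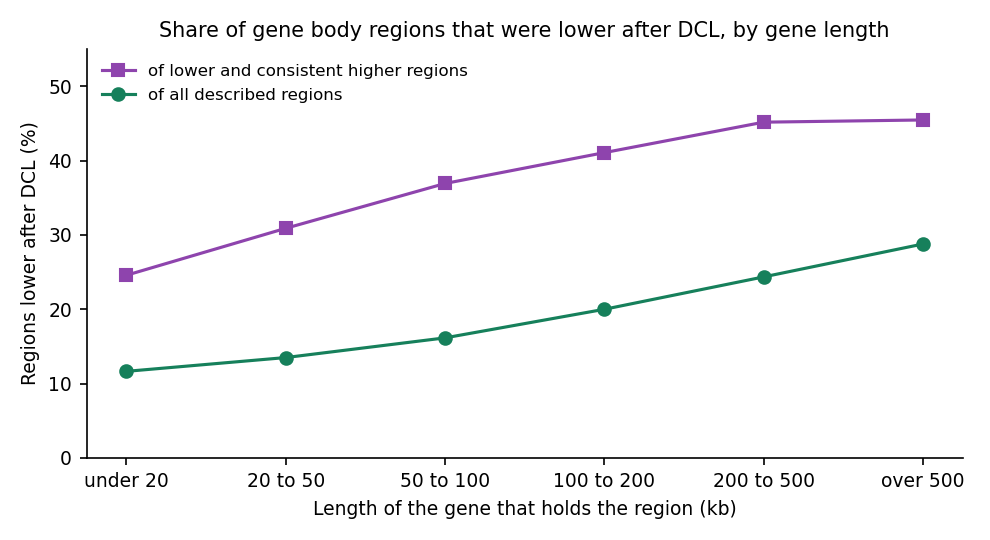
Share of gene body regions that were lower after DCL, by the length of the gene that holds them, over all described regions (circles) and over lower and consistent higher regions only (squares). Both shares are smallest in genes under 20 kb, at 11.6% and 24.6%, and largest in genes over 500 kb, at 28.8% and 45.5%.

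The direction of neighbouring regions was compared without a test. Of lower regions followed by another listed region within 20 kb, 497 of 2484 were followed by a lower one and the rest by a higher one, beside 17.2% lower among all regions. After a consistent higher region this held for 668 of 4762 (14.0%), and after another higher region for 1273 of 9006 (14.1%). The longest run of lower regions held 8, in and beside Efna5, the repulsive guidance ligand ephrin-A5 (chr17:63148321-63434060). Its medians were 6.27, 7.47 and 7.57 normalised reads in DCL libraries, against 21.9, 19.5 and 18.965 in control libraries. A run of 7 lower regions lay in Gtdc1, a glycosyltransferase-like gene. Another run of 7 spanned Cep83, a centriole protein needed for cilia, and Plxnc1, a semaphorin receptor. All regions of these 3 runs were consistent. The longest run of higher regions held 77 over 1823 kb of chromosome 8 around Gse1, Cox4i1, Map1lc3b and Slc7a5, of which 33 were consistent. Medians in that run were 62.7, 28.4 and 21.7 normalised reads in DCL libraries, against 18.5, 18.6 and 18.2 in control libraries. A run of 75 on chromosome 5 held Gtf2i, Limk1, Eln, Stx1a and Baz1b, genes of the interval deleted in Williams syndrome in humans, and 25 of its regions were consistent. A run of 66 on chromosome 11 held Taok1, Myo18a and Sez6, and 24 of its regions were consistent. In all these higher runs the first-listed DCL library had the highest median. Among all described regions 82.8% were higher, and 11067 of the 28997 higher ones were consistent.

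Single long genes carried many regions of both directions. Rbms3, an RNA-binding protein, had 12 consistent higher, 16 other higher and 10 lower regions. Nav2, a neuron navigator of neurite outgrowth, had 10, 19 and 4. Gpc6, a glypican, had 5, 9 and 16, the largest number of lower regions in any gene. Nfia, a transcription factor of gliogenesis, had 4, 4 and 12. In Nfia, a lower region 73103 bp from the start had 3.14, 1.49 and 4.61 normalised reads in DCL libraries, against 16.6, 15.5 and 13.4 in control libraries. In Rbms3, a lower region at chr9:117045981-117046200 had 28.2, 32.9 and 27.0 normalised reads in DCL libraries, against 59.5, 53.3 and 54.0 in control libraries. Neither set of libraries overlapped, and the Rbms3 values rest on deeper coverage than most lower regions. Adgrl3, a latrophilin of synapses, had 8 lower regions, 1 of them at 6.27, 5.97 and 5.92 normalised reads in DCL libraries, against 26.3, 21.1 and 22.97 in control libraries. Tcf4, a helix-loop-helix factor of neurons, had 1 consistent higher and 8 lower regions. Pard3 and Pard3b, cell polarity scaffolds, had 10 and 8 lower regions, Auts2 had 10, Arhgef28, a guanine nucleotide exchange factor, had 9, and Wwox had 8. On the other side, Sdk1, an adhesion protein of synapses, had 9 consistent higher regions. Arhgap10, Col23a1, Dnah8, Fto, Macrod2, Tenm2 and Trerf1 had 8 each.

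**Figure D4:**
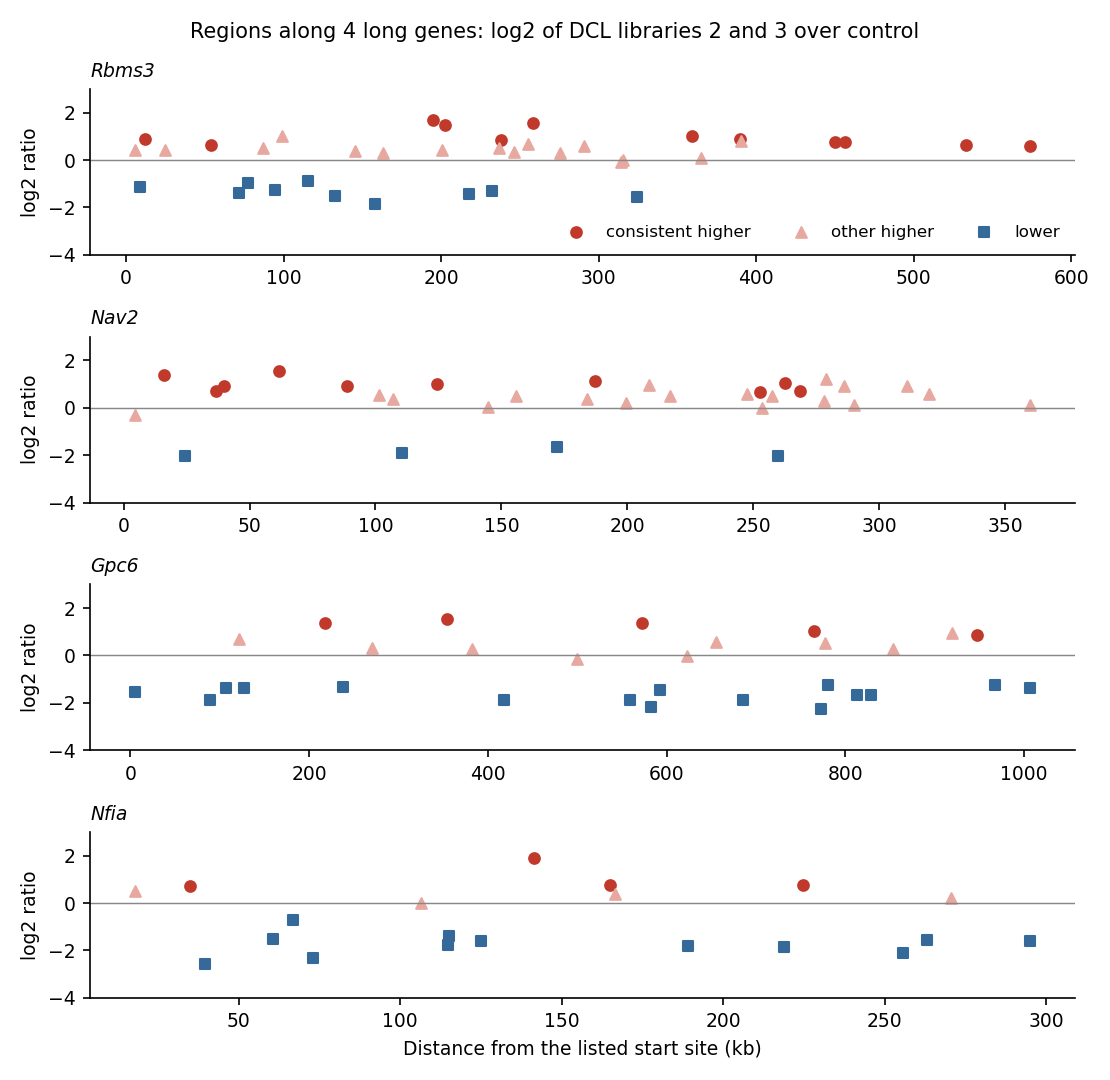
Regions along Rbms3, Nav2, Gpc6 and Nfia by distance from the listed start site, with the log2 ratio of the mean of the second- and third-listed DCL libraries over the control mean. Red circles are consistent higher, pale triangles other higher and blue squares lower regions, and both directions are interspersed along each gene.

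Of 21900 protein-coding genes of RefSeq, 38.3% had any listed region, 19.7% a consistent higher one, 11.9% a lower one and 5.96% both. These shares grew with gene length. A consistent higher region was present in 7.66% of genes under 20 kb, 22.3% at 20 to 50 kb and 36.2% at 50 to 100 kb. It was present in 51.6% at 100 to 200 kb and 62.6% over 200 kb. A lower region was present in 2.57%, 10.9%, 23.5%, 41.2% and 57.2% of the same classes. Counts of the gene lists that follow are read beside these shares, with the median length of the list, and no list was tested. Values are those of single regions, and a gene named for a region of one direction may hold others of the opposite one.

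Injury-induced transcription factors, the genes that switch on when a peripheral axon is cut, had a median length of 8.68 kb. The list also holds long genes, such as Rarb, with a region 358025 bp from its start. Of 24 members 6 had a consistent higher region and 7 a lower one. These are 25% and 29.2% of members, beside 7.66% and 2.57% of all genes under 20 kb. Atf3 and Jun, early markers of axon injury, carried no listed region. Sox11, a factor that promotes axon growth, had a lower region at -1497 bp, with 6.27, 5.97 and 5.26 normalised reads in DCL libraries, against 19.5, 19.8 and 16.0 in control libraries. Hif1a, the hypoxia-inducible factor, had 3.14, 10.5 and 9.87 in DCL libraries, against 22.4, 26.7 and 29.4 in control libraries, 2186 bp from its start. Both regions lay below all controls. Stat3, which transmits cytokine signals after nerve injury, had a higher region at 75.3, 32.9 and 22.4 in DCL libraries, against 16.6, 14.9 and 17.6 in control libraries. Every DCL library lay above the controls there. Rarb, a retinoic acid receptor linked to axon growth, held regions of both directions, as did Stat3. The growth-associated genes Gap43 and Sprr1a and the neurotrophin Bdnf carried no listed region.

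Among genes that write, read or remove DNA methylation and 5-hmC, 7 of 24 had a consistent higher region and 3 a lower one (median length 22.4 kb). Those are 29.2% and 12.5%, beside 22.3% and 10.9% of all genes of 20 to 50 kb. Uhrf1, which guides maintenance methylation, had 25.1, 31.4 and 25.7 normalised reads in DCL libraries, against 11.7, 9.92 and 11.2 in control libraries, 1024 bp from its start. Idh1, a source of the TET cosubstrate 2-oxoglutarate, had 34.5, 31.4 and 36.9 in DCL libraries, against 12.7, 19.2 and 17.1 in control libraries. Both were higher in every DCL library than in any control library. The TET genes themselves differed by position. Tet1 had a region at 0, 0 and 7.24 in DCL libraries, against 15.6, 15.5 and 13.4 in control libraries. Tet2 had a consistent higher region at 75.3, 41.8 and 46.1 in DCL libraries, against 24.4, 31.0 and 27.8 in control libraries. Tet3 carried 6 listed regions, 3 higher and 3 lower. Its clearest lower region had 18.8, 10.5 and 15.1 in DCL libraries, against 31.2, 37.2 and 33.1 in control libraries. One Tet3 region called higher had 207, 23.9 and 29.6 in DCL libraries, against 44.8, 32.2 and 33.7 in control libraries, so it lay below the controls once the first-listed DCL library was left out.

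Histone-modifying enzymes, which set the chromatin state around genes, had 20 of 38 members with a consistent higher and 16 with a lower region (median 77.9 kb). That is 52.6% and 42.1%, beside 36.2% and 23.5% of all genes of 50 to 100 kb. Ash1l, a methyltransferase for histone H3 lysine 36, had a region at 15.7, 23.9 and 29.6 normalised reads in DCL libraries, against 5.85, 6.20 and 4.81 in control libraries. A second Ash1l region, nearer its start, was lower, at 6.27, 5.97 and 12.5 in DCL libraries, against 31.2, 24.8 and 27.3 in control libraries. The groups lay apart in both, in opposite directions within 1 gene. Kdm4c, a histone demethylase, had 9.41, 8.96 and 8.55 in DCL libraries, against 29.2, 22.3 and 26.7 in control libraries. Kmt2c and Ehmt1, histone methyltransferases, had higher regions, with ratios of 4.6 and 2.66 over all DCL libraries and 2.52 and 1.60 without the first-listed one. Kdm4c and Kmt2c also held regions of the other direction.

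Inhibitors of axon growth and their receptors had 8 of 24 members with a consistent higher region and 5 with a lower one (median 57.8 kb). Both shares, 33.3% and 20.8%, were near those of all genes of 50 to 100 kb, 36.2% and 23.5%. Ptprd, a receptor phosphatase, had 6.27, 2.99 and 3.95 normalised reads in DCL libraries, against 17.5, 21.1 and 16.6 in control libraries. Rock1, the kinase downstream of RhoA, also had a lower region. These were lower in all DCL libraries, whereas a region in Rhoa itself was higher, at 72.1, 34.3 and 13.2 in DCL libraries, against 7.80, 10.5 and 6.41 in control libraries. Ptprf, another receptor phosphatase, and Epha4, a repulsive receptor, had higher regions with ratios of 2.77 and 2.87 over all DCL libraries and 1.88 and 1.60 without the first-listed one.

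Insulin, PI3K and mTOR signalling, which drives growth of the cell and its axon, had 13 of 24 members with a consistent higher region, 10 with a lower one and 8 with both (median 84.7 kb). For consistent higher and lower regions the shares were 54.2% and 41.7%, beside 36.2% and 23.5% of all genes of 50 to 100 kb. Igf1r, the receptor of insulin-like growth factor 1, held a region at 78.4, 62.7 and 30.3 normalised reads in DCL libraries, against 18.5, 27.9 and 26.2 in control libraries. It also held a lower region, at 9.41, 4.48 and 12.5 in DCL libraries, against 27.3, 26.7 and 29.4 in control libraries. Gsk3b, a kinase that restrains microtubule assembly, had 0, 5.97 and 1.97 in DCL libraries, against 13.7, 15.5 and 12.3 in control libraries. Igf1r and Gsk3b lay apart from the controls in each of these regions. Akt2 and Deptor, a kinase and an mTOR inhibitor, had higher regions with ratios of 3.80 and 2.57 over all DCL libraries and 1.86 and 1.74 without the first-listed one, and both also held lower regions.

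Neurotrophic receptors and ligands, which keep sensory neurons alive and shape their growth, had 16 of 28 members with a consistent higher region (57.1%) and 6 with a lower one (21.4%). Their median length was 48.5 kb, at the border of 2 classes. Of all genes of 20 to 50 kb, 22.3% had a consistent higher and 10.9% a lower region, and of those of 50 to 100 kb, 36.2% and 23.5%. Sort1, a sorting receptor of proneurotrophins, had 75.3, 43.3 and 21.7 normalised reads in DCL libraries, against 11.7, 14.3 and 9.08 in control libraries. Gfra3, the artemin receptor of nociceptors, had 56.5, 17.9 and 29.6 in DCL libraries, against 15.6, 15.5 and 9.08 in control libraries. Every DCL library exceeded the controls in both. Ntrk2, the receptor of BDNF, had a lower region at 3.14, 10.5 and 6.58 in DCL libraries, against 24.4, 24.2 and 23.5 in control libraries. Gfra1, the GDNF co-receptor, had 0, 4.48 and 5.26 in DCL libraries, against 18.5, 19.2 and 15.5 in control libraries. Sort1, Ntrk2, Gfra1, Il6ra and the adaptor Gab1 had regions of both directions, while Ntrk3, Ret and Gfra2 had consistent higher regions and no lower one.

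Calcium channels, stores and kinases had 28 of 42 members with a consistent higher region and 20 with a lower one, at a median length of 212 kb. As shares this is 66.7% and 47.6%, beside 62.6% and 57.2% of all genes over 200 kb. Stim2, a sensor of calcium in the endoplasmic reticulum, had 3.14, 4.48 and 3.29 normalised reads in DCL libraries, against 20.5, 14.9 and 18.2 in control libraries. Prkce, protein kinase C epsilon of nociceptors, had 3.14, 5.97 and 2.63 in DCL libraries, against 18.5, 18.6 and 19.8 in control libraries. Camkk1, a kinase upstream of CaM kinases, had 6.27, 5.97 and 5.92 in DCL libraries, against 18.5, 22.3 and 22.4 in control libraries. In these genes the groups did not overlap. Ryr1, Camk4 and Cacna2d2, the last a subunit of calcium channels, had higher regions with ratios of 3.1 to 3.69 over all DCL libraries and 1.69 to 1.98 without the first-listed one. Stim2, Prkce, Ryr1 and Camk4 held regions of both directions.

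Sodium, TRP, purinergic and mechanosensory channels, the transducers of pain and touch, had 15 of 28 members with a consistent higher region (53.6%) and 6 with a lower one (21.4%, median 69.8 kb). Over all genes of 50 to 100 kb the shares were 36.2% and 23.5%. Trpv1, the capsaicin and heat receptor, had 47.1, 25.4 and 25 normalised reads in DCL libraries, against 11.7, 8.68 and 14.96 in control libraries. Asic2, an acid-sensing channel, had 34.5, 23.9 and 16.5 in DCL libraries, against 7.80, 7.44 and 6.41 in control libraries. Both were higher without overlap. Piezo2, the touch channel, Piezo1 and Trpm3 each held a consistent higher and a lower region. The lower Piezo1 region had 6.27, 0 and 4.61 in DCL libraries, against 15.6, 12.4 and 16.0 in control libraries. That of Trpm3, a heat channel, had 0, 1.49 and 13.2 in DCL libraries, against 35.1, 27.9 and 27.8 in control libraries. Potassium channels had 11 of 33 members with a consistent higher and 11 with a lower region (median 195 kb). Each is a share of 33.3%, beside 51.6% and 41.2% of all genes of 100 to 200 kb. Among potassium channels Kcnk1 had higher values, at 40.8, 29.9 and 24.4 in DCL libraries, against 14.6, 13.0 and 10.7 in control libraries. Kcnk2, a mechanosensitive background channel with regions of both directions, had a lower one at 0, 8.96 and 11.8 in DCL libraries, against 32.2, 30.4 and 29.9 in control libraries.

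Glutamate and GABA receptors and release proteins had 14 of 39 members with a consistent higher and 9 with a lower region (median 224 kb). Each share, 35.9% and 23.1%, was below that of all genes over 200 kb, 62.6% and 57.2%. Grik1, the kainate receptor of nociceptors, had 31.4, 35.8 and 26.3 normalised reads in DCL libraries, against 9.75, 13.6 and 11.2 in control libraries. Gria4, an AMPA receptor subunit, had 0, 1.49 and 7.24 in DCL libraries, against 32.2, 23.6 and 21.4 in control libraries. Grm4, a presynaptic metabotropic receptor, had 31.4, 31.4 and 41.5 in DCL libraries, against 78.0, 76.9 and 82.3 in control libraries. In each of the 3 genes the groups lay apart, and the Grm4 values were high enough to rest on 10 or more reads in every library. The authors' deposited table lists an adjusted p of 6e-05 for Grm4.

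Axon guidance receptors and cues had 30 of 42 members with a consistent higher region (71.4%), 24 with a lower one (57.1%) and 19 with both (median 193 kb). Of all genes of 100 to 200 kb, 51.6% had a consistent higher and 41.2% a lower region. Sema3a, a repellent of sensory axons, had 69.0, 26.9 and 24.4 normalised reads in DCL libraries, against 14.6, 8.06 and 14.4 in control libraries. Sema3e had a ratio of 4.53 over all DCL libraries and 2.51 without the first-listed one, and Slit3 had ratios of 2.86 and 1.59. Dcc, the netrin receptor, had 6.27, 4.48 and 1.97 in DCL libraries, against 13.7, 18.6 and 14.4 in control libraries. Sema6d had 15.7, 4.48 and 8.55 in DCL libraries, against 34.1, 28.5 and 31.5 in control libraries. The Sema3a region lay above its controls, and those of Dcc and Sema6d lay below theirs, without overlap. Sema6d, Slit3, Nrp1, Nrp2, Slit1, Slit2 and Robo1 were among the genes with both directions.

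The axonal cytoskeleton, its motors and scaffolds had 25 of 45 members with a consistent higher region, 26 with a lower one and 20 with both (median 117 kb). These are shares of 55.6% and 57.8%, beside 51.6% and 41.2% of all genes of 100 to 200 kb. Ank3, the ankyrin of the axon initial segment and nodes, had 47.1, 70.2 and 45.4 normalised reads in DCL libraries, against 17.5, 27.9 and 23.5 in control libraries. Fmn1, a formin, had 6.27, 2.99 and 1.32 in DCL libraries, against 13.7, 15.5 and 11.8 in control libraries. Magi1, a junction scaffold, had 0, 22.4 and 18.4 in DCL libraries, against 39.0, 39.7 and 41.7 in control libraries. The Ank3 region was higher and the Fmn1 and Magi1 regions lower with no overlap, and in Magi1 the first-listed DCL library had no read. Ank3 and Magi1 are among the members with regions of both directions. The neurofilament genes Nefl, Nefm and Nefh and Tubb3 carried no listed region.

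BMP, TGF-beta and Wnt signalling had 21 of 41 members with a consistent higher region and 19 with a lower one (median 70.0 kb). Their shares, 51.2% and 46.3%, stand beside 36.2% and 23.5% of all genes of 50 to 100 kb. Tcf7l2, a Wnt effector, had 47.1, 26.9 and 28.3 normalised reads in DCL libraries, against 8.77, 15.5 and 6.95 in control libraries. Tgfbr2, the type II TGF-beta receptor, had 12.6, 5.97 and 7.24 in DCL libraries, against 22.4, 29.1 and 22.4 in control libraries. Lef1, another Wnt effector, had 3.14, 4.48 and 0.66 in DCL libraries, against 12.7, 11.2 and 11.2 in control libraries. Tcf7l2 and Lef1 held regions of both directions. Autophagy and lysosome genes had 16 of 28 members with a consistent higher and 12 with a lower region (median 45.9 kb). In this list that is 57.1% and 42.9%, beside 22.3% and 10.9% of all genes of 20 to 50 kb. Atg2b, a lipid transfer protein of autophagosomes, had 9.41, 13.4 and 11.2 in DCL libraries, against 39.0, 43.4 and 35.8 in control libraries, with an adjusted p of 2.27e-05 in the authors' deposited table. Becn1, which starts autophagy, had 0, 0 and 4.61 in DCL libraries, against 14.6, 13.0 and 13.4 in control libraries. Atg2b also held a consistent higher region. Tfeb, the master regulator of lysosomal genes, had a higher region at 62.7, 16.4 and 15.1 in DCL libraries, against 3.90, 11.2 and 7.48 in control libraries.

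**Figure D5:**
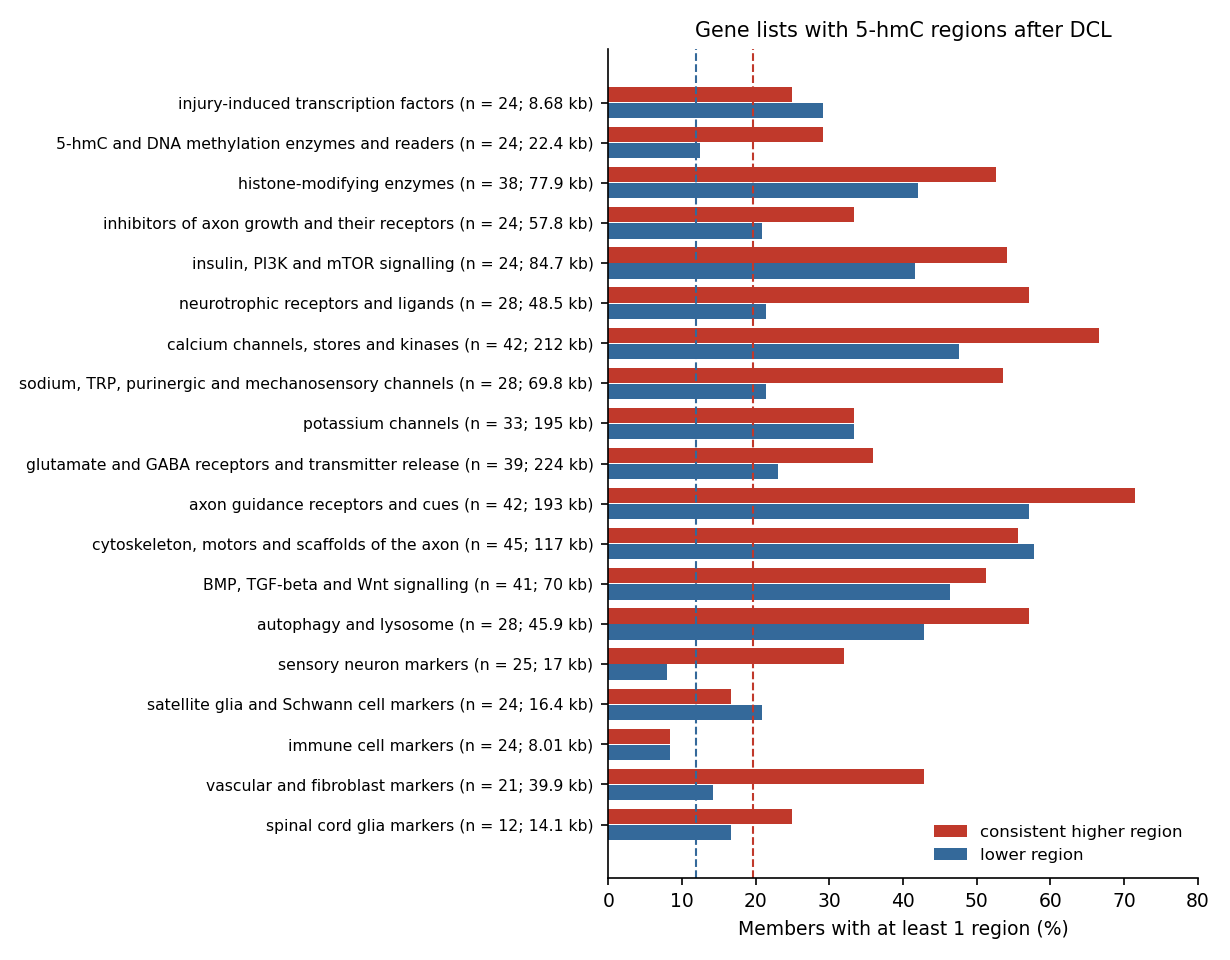
Share of each gene list with at least 1 consistent higher region (red, upper bars) and at least 1 lower region (blue, lower bars), with the number of members and median gene length beside each list. Dashed lines mark the shares of 21900 protein-coding genes, 19.7% for consistent higher (red) and 11.9% for lower regions (blue), which are not matched for gene length.

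Regions also lay in marker genes of the cell types in and beside the ganglion. Most of these lists hold short genes. Of all genes under 20 kb, 7.66% had a consistent higher and 2.57% a lower region. Sensory neuron markers had 8 of 25 members (32%) with a consistent higher region and 2 (8%) with a lower one (median 17.0 kb). Among the higher ones was a region in Mrgprd, at 84.7, 20.9 and 15.8 normalised reads in DCL libraries, against 11.7, 11.2 and 12.8 in control libraries. Satellite glia and Schwann cell markers had a consistent higher region in 4 of 24 members (16.7%) and a lower one in 5 (20.8%, median 16.4 kb). Pmp22, a myelin protein, had a lower region 926 bp from its start, at 0, 4.48 and 2.63 in DCL libraries, against 15.6, 14.9 and 13.9 in control libraries, and a higher region further in. Immune markers had 2 of 24 members (8.33%) in each direction (median 8.01 kb), beside 7.66% for consistent higher and 2.57% for lower regions among all genes under 20 kb. Vascular and fibroblast markers had a consistent higher region in 9 of 21 members and a lower one in 3 (median 39.9 kb), beside 22.3% and 10.9% of all genes of 20 to 50 kb. Spinal cord glia markers had a consistent higher region in 3 of 12 members (25%) and a lower one in 2 (16.7%, median 14.1 kb). These are 5-hmC regions in marker genes, not levels of the markers, and the part of cell composition in the results was not tested.

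Some regions lay at microRNA genes, and whether such a region bears on the product was not tested. Of 119 regions at 112 microRNA genes, 40 (33.6%) were consistent higher, near the share of all regions, 69 were other higher and 10 (8.4%) were lower, beside 17.2% lower over all regions. Most of them, 113, lay in a promoter class, where 13.2% to 15.7% of regions were lower. Mature sequences from RefSeq GRCm38.p6 are printed for 8 microRNAs with a role known in neurons, hypoxia, blood or skin, chosen after their values were seen, with the seed (bases 2 to 8) in capitals.
miR-132-3p: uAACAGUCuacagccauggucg
miR-218-5p: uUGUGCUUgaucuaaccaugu
miR-210-3p: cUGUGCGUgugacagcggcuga
miR-144-3p: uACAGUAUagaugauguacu
miR-153-3p: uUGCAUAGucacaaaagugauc
miR-203-3p: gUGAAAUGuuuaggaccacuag
miR-342-3p: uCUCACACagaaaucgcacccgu
miR-204-5p: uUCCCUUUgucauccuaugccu
No seed is shared among the 40 microRNA genes with a consistent promoter region and a mature sequence. Distances are from the listed start of the hairpin, not from the start of a primary transcript.

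Mir132, induced by neuronal activity through CREB, had 31.4, 40.3 and 17.1 normalised reads in DCL libraries, against 12.7, 13.6 and 10.7 in control libraries, 816 bp from the hairpin. Mir218-2, which lies within Slit3, had 59.6, 47.8 and 34.9 in DCL libraries, against 20.5, 24.8 and 25.1 in control libraries, 52 bp away. Mir210, induced by hypoxia, had 65.9, 37.3 and 21.1 in DCL libraries, against 16.6, 15.5 and 17.6 in control libraries. All DCL libraries exceeded all controls at these genes. Mir144 of red blood cells, Mir153 of neurons, Mir203 of skin and Mir342 were also consistent higher. Mir153 had 12.6, 11.95 and 14.5 in DCL libraries, against 7.80, 2.48 and 4.81 in control libraries. Mir204, which lies within Trpm3, had a lower region at 0, 5.97 and 5.26 in DCL libraries, against 15.6, 16.1 and 17.6 in control libraries, at -1805 bp. Trpm3 holds both a consistent higher region and the lower one given above.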

How the data were processed

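DNA of mouse dorsal root ganglia was sheared to an average of 250 bp, and 4.3 µg per sample was enriched for 5-hmC by glucosylation, biotin and streptavidin, per the labels' protocols. Libraries from 10 ng were sequenced as 50 bp paired ends. Bowtie2 2.2.0, SAMtools 0.1.19, MACS2 2.1.1 and mm9 are named, with no role, per the submitters' processing notes. The program that called the regions is not given in the sources used here. Each cell of the deposited count columns holds 3 normalised read counts, per the file headers and values. Averages deposited per group are signal values equal to the mean of such a cell. The deposited enrichment ratio was not used. The deposited log2 fold change is that of the averages, and log2 values without the first-listed DCL library were computed here. The deposited p-value and adjusted p-value come from a test that is not named.

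Only selected regions are listed, so no count model was fitted, although the design had allowed for one had every window been present, and no test was run across regions. Chromosome M, pericentromere, Sfi1, Rn45s and an interval of chromosome 2 were set aside. Reads were recovered from the step between low values, and 100% were whole within 0.1 of a step. Each library is a pool of animals, so errors are those between pools. Members and gene lists were chosen with earlier results of these data known. Named were the 10 genes per direction with most consistent regions, the 8 with the largest fold without the first-listed DCL library at a mean of at least 10 in the higher group, the 8 such in promoters, up to 3 per gene list by adjusted p, the 3 longest runs per direction, and Tet1, Tet2, Tet3, Atf3, Jun, Sox11, Gap43, Sprr1a and Bdnf. Results of a few genes the rule names are not reported here. Printed promoters and microRNAs are outside this rule and were chosen after values were seen. Of 9097 gene names, 9075 (99.8%) matched RefSeq GRCm38.p6, which gave gene lengths and sequences but no coordinates of regions. Scripts ran in python 3.11.15 with pandas 2.3.3, numpy 2.4.6, matplotlib 3.10.9 and scipy 1.17.1 and were tested on simulated data. Alternatives left out each library, used medians, stricter adjusted p, a mean of at least 10, a 2-fold difference, the set-aside regions and the nearest promoter class.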

Additional observations from a re-analysis of the deposited data

Results flagged for a closer look

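The 211 regions set aside were outside the comparisons and all were higher after DCL. An interval of chromosome 2 (77710841 to 77999960) held 104 of them, 45 in Cwc22, with medians of 47.1, 61.2 and 47.1 normalised reads in DCL libraries, against 18.5, 29.1 and 8.82 in control libraries. Without the first-listed DCL library its median ratio was 3.18, and all libraries lay apart in 91 regions. On chromosome M, 10 regions had medians of 1062, 270 and 74.0 in DCL libraries, against 121, 67.6 and 126 in control libraries, with a ratio of 1.67 without the first-listed DCL library and overlap in all of them. The ratio was 1.55 in 41 pericentromeric regions, 1.34 in 49 regions of Sfi1 and 1.15 in 7 regions of Rn45s.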

How the results depend on the processing

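Of 110 values recomputed under other settings, 103 moved by less than the limit set for them and 7 moved more. The limit was 1.5-fold for counts. For share differences it was the half-width of a binomial interval over regions, which are not replicates. Some values could not move, such as the count 14858 below when the first-listed DCL library, already absent from it, was left out. The 103 are therefore no measure of stability. The count of higher regions with all libraries apart, 13466, ran from 13510 to 23846 when a library was left out. The highest was without the third-listed DCL library. Leaving out a library can only raise or keep a count of regions with libraries apart, so this range does not show stability. The count was 7444 when each DCL library also had to reach 1.5 times the control mean, a setting chosen after seeing the data. The count of higher regions at least 1.5-fold higher without the first-listed DCL library, 14858, ran from 8998, without the second-listed one as well, to 19111. The count of lower regions at 1.5-fold ran from 5896 to 6020. That of lower regions with libraries apart ran from 6017 to 6030, and it too could not fall. The promoter share of higher minus lower regions, 2.17 percentage points, was 0.0417 with the nearest promoter class only. The bases are unlike: all promoter classes held 10.1% of higher and 7.95% of lower regions, the nearest class 0.390% and 0.348%. A difference in that class could therefore only be small. The lower share in genes over 200 kb minus that in genes under 20 kb, 13.8 points, was 11.7 at a mean of at least 10 and 15.9 at 2-fold, and among lower and consistent higher regions, 20.7 points, it ran from 16.9 to 22.2 with a library left out. The length comparison was also added after seeing the data. The causes were not tested. No paired analysis was possible because the 3 values of a cell carry no replicate number and only selected regions are listed, and for the latter reason a replicate block and TMM against DESeq2 size factors were not run. At 3.14 normalised reads per read, the first-listed DCL library cannot resolve differences among low values.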
